A study of Homo sapiens with 38 samples.

Results

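IL1B (interleukin 1 beta) at 1 ng/ml was left on A549 cells of the control arm for 10 h, and their RNA was set against that of control cells at 0 h on Affymetrix arrays. All 8 arrays labelled control at one of those hours were taken, of 38 in the series: 4 at 10 h and 4 at 0 h. A549 cells derive from a human lung adenocarcinoma and keep some traits of alveolar type II epithelium. Their passage lay, per the labels' protocols, between 90 and 110, and the cells went through the 48 h of the silencing step as controls, and stood without serum for 24 h before the cytokine was added. The labels do not say what the control cells were transfected with. The cells at 0 h received no IL1B, and no untreated array at 10 h was analysed here, so the effect of IL1B and that of further hours in culture cannot be told apart. Control arrays at 2, 4 and 8 h (4, 4 and 3 arrays) and arrays of cells carrying a pool of siRNAs against ORMDL3 (4 at 10 h and 3 at 0 h) served for comparison. The product of ORMDL3 sits in the endoplasmic reticulum membrane and restrains the first enzyme of sphingolipid synthesis.

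IL1B is an inflammatory cytokine that binds the receptor IL1R1 with its accessory protein IL1RAP. The adaptor MYD88 and kinases of the IRAK family then activate the kinase TAK1, which releases NF-kB transcription factors from their inhibitors and switches on MAP kinases. In airway epithelium this pathway is known for chemokine, cytokine and antimicrobial gene expression, and it is held in check by inhibitors that NF-kB itself induces.

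The deposited table held log2 levels of 14488 probe sets per array. The median level was 8.12 to 8.17 in the arrays at 10 h and 8.11 to 8.15 in those at 0 h, and the lower quartile was 6.63 to 6.66 at 10 h and 6.61 to 6.66 at 0 h. No detection calls were used, so whether a level under that quartile stands above background is not known. In the controls, the first principal component of the deviations from the group means set the arrays numbered 4 at 0, 2 and 4 h apart from the others. Where leaving out all arrays numbered 4 changed the call of a gene taken by the naming rule, both results are given. The mean level of small nucleolar RNAs, which can move with RNA preparation, was 7.13 to 7.50 at 10 h and 6.92 to 7.37 at 0 h, so that the groups overlapped. Of 18 lung epithelial markers, 10 were measured. The keratins KRT8 and KRT18 and the mucin MUC1 stood at 12.75 ± 0.21 at 10 h against 13.28 ± 0.10 at 0 h, 12.28 ± 0.14 at 10 h against 12.76 ± 0.07 at 0 h and 8.83 ± 0.08 at 10 h against 7.91 ± 0.09 at 0 h (SD, n = 4 each). The keratins were far above the array medians, and the adhesion protein EPCAM was below them, at 6.52 ± 0.09 at 10 h against 7.21 ± 0.17 at 0 h. Of 15 leukocyte markers 4 were measured, with a mean level of 7.72 to 7.91 at 10 h and 7.51 to 7.57 at 0 h, and 2 of them, ITGAM and CD68, were called higher at 10 h. CDH5, the 1 endothelial marker measured of 8, had a level of 6.16 to 6.53 at 10 h and 4.90 to 5.77 at 0 h, and COL1A1, the 1 fibroblast marker measured of 8, had 6.81 to 7.004 at 10 h and 6.63 to 6.79 at 0 h. The part of other cell types in the results was not tested. As in any bulk sample, fewer cells and less RNA per cell cannot be told apart.

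After 10 h of IL1B, genes for chemokines, cytokines and defence proteins were the most raised, and the rise was far larger than any fall. CCL5, a chemokine for T cells and monocytes, rose 99.2-fold, and CCL20, which attracts dendritic cells and lymphocytes, rose 55.5-fold. By contrast the gene that fell most, RAP1GAP, which switches off the small GTPase RAP1, was 4.5 times lower. A linear model with 1 mean per group was fitted to all 38 arrays with limma, the Benjamini-Hochberg adjustment ran over the whole table, and a probe set was called when its adjusted p was under 0.05. Of 14488 probe sets, 5030 were called at 10 h against 0 h (34.7%), 2568 of them higher (17.7%) and 2462 lower (17.0%). More than 2-fold changes were mostly rises, with 285 probe sets higher and 93 lower, and 21 were over 8-fold higher. Changes are given as log2 differences ± the standard error of the model. The median difference over all probe sets was -0.0041, and over the called ones the median was 0.41 for rises and -0.40 for falls, so that most calls were small.

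**Figure D1:**
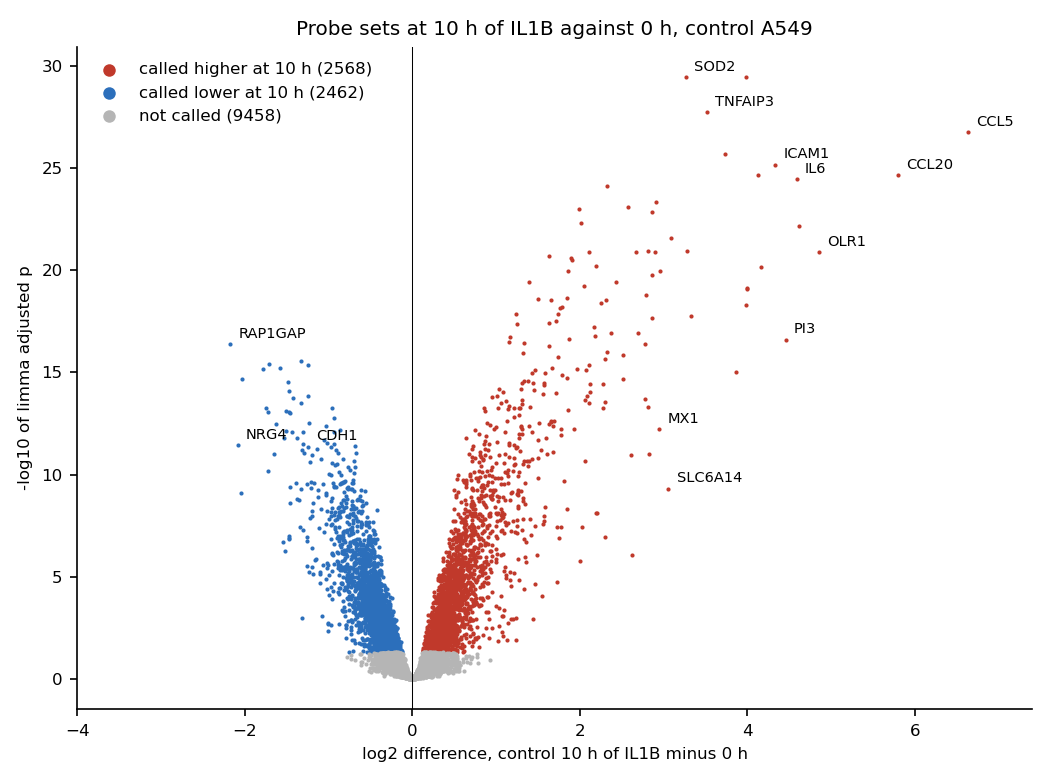
Each point is a probe set, with the log2 difference between control cells at 10 h of IL1B and at 0 h on the horizontal axis and -log10 of limma's adjusted p on the vertical axis. Red points were called higher at 10 h (2568) and blue points lower (2462), and the rises reach 6.63 (CCL5) while the falls end at -2.17 (RAP1GAP).

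The log2 level of CCL5 was 11.38, 10.93, 11.50 and 11.14 at 10 h, against 4.85, 4.43, 4.94 and 4.21 at 0 h. CCL20 stood at 10.89, 11.14, 10.94 and 10.58 at 10 h, against 4.82, 4.88, 5.24 and 5.43 at 0 h. At 10 h both stood well above the array medians and at 0 h far below them, with a wide gap between the groups. OLR1, a scavenger receptor for oxidised lipoprotein, had 10.09, 10.26, 9.75 and 9.61 at 10 h, against 5.2, 4.99, 4.93 and 5.17 at 0 h. For IL6, a cytokine that drives the acute-phase response, the levels were 10.22, 10.21, 10.06 and 9.85 at 10 h, against 5.38, 5.50, 5.53 and 5.56 at 0 h. PI3, the elastase inhibitor elafin of airway and skin, gave 10.40, 10.34, 10.41 and 9.96 at 10 h, against 5.49, 6.10, 5.95 and 5.74 at 0 h. In each of these 5 genes the 4 arrays of one group lay together and far from the other group, and only PI3 had an array, replicate 4 at 10 h, that stood clearly below its companions. The changes were 6.63 ± 0.15 for CCL5, 5.79 ± 0.15 for CCL20, 4.85 ± 0.17 for OLR1, 4.59 ± 0.12 for IL6 and 4.46 ± 0.23 for PI3, with adjusted p-values between 2.51e-17 for PI3 and 1.85e-27 for CCL5. Of the 20 genes with the largest rises and the 20 with the largest falls, all 40 had arrays at 10 h that did not overlap those at 0 h. They were chosen by the size of this same difference, which favours such a gap, so the count is a description and no further support. The rises among them ran from 2.96 to 6.63 and the falls from 1.47 to 2.17 in size, and their largest adjusted p was 5.5e-07 (AK5).

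**Figure D2:**
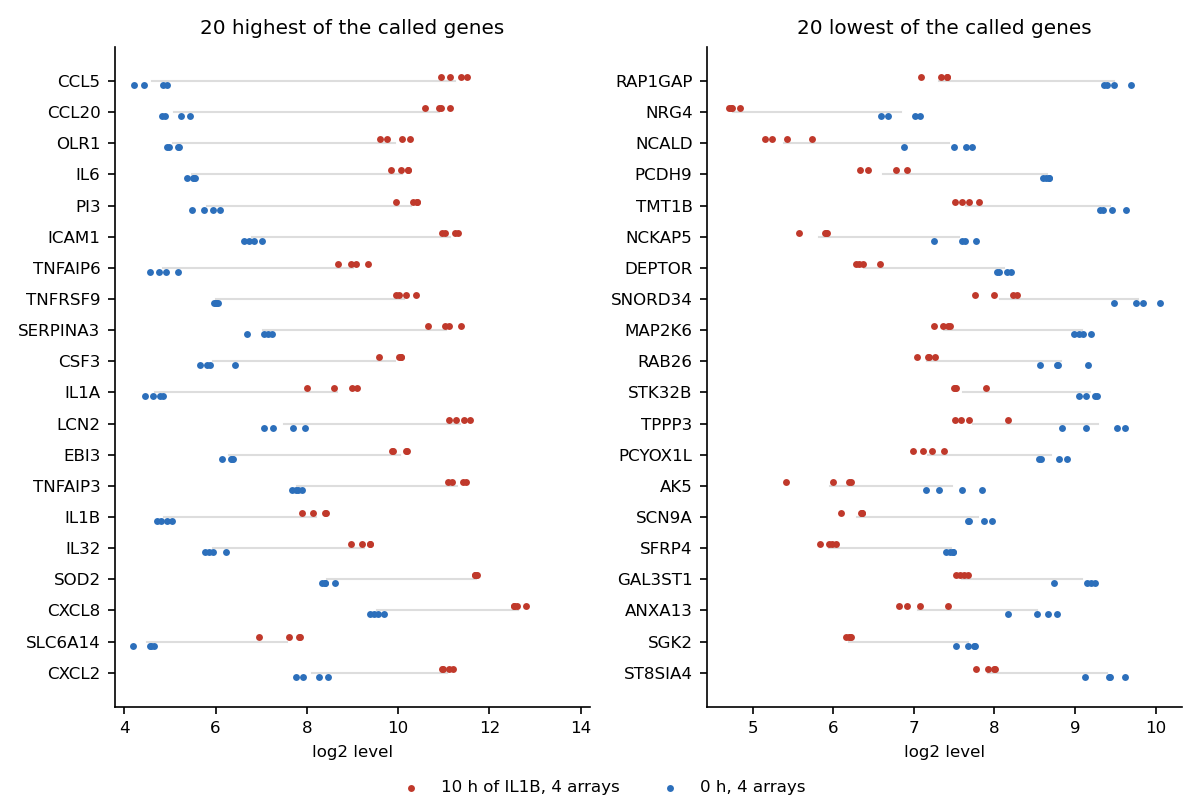
Log2 levels of the 20 genes with the largest rises (left) and the 20 with the largest falls (right) in single control arrays, 4 at 10 h of IL1B (red) and 4 at 0 h (blue), with a grey line between the group means. In every row the groups are apart, and the distance is wider on the left, where CCL5 spans 10.93 to 11.50 at 10 h and 4.21 to 4.94 at 0 h. The genes were chosen by this same difference, which favours such a gap.

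NF-kB dimers bind the kappa B motif and interferon-activated complexes bind the interferon-stimulated response element (ISRE), so promoters from RefSeq (build GRCh38.p14, 250 bases before to 50 after the gene start) were searched for both motifs on both strands. The kappa B consensus was searched as its 10-base form and the ISRE core as TTTC and a second TTTC with 2 free bases between them; overlapping matches were counted separately. Of all 35116 promoters in the table, 11.3% held a kappa B match and 3.57% an ISRE match. Of 9531 measured genes with a promoter, taken with 1 promoter each as in the sets below, 13.3% and 2.53% did. For 16 of the 20 genes with the largest rises a promoter was in the table, and 8 of these held a kappa B match and 0 an ISRE match. For 12 of the 20 with the largest falls there was a promoter, and 0 held either. Of the 41 interferon-stimulated genes with a promoter, 27 (65.9%) held an ISRE match and 7 (17.1%) a kappa B match. A match is a description of the letters in this window and shows no binding. The promoters of the 3 most raised genes with a kappa B match and of the most raised interferon-stimulated gene with an ISRE match are shown because they carry the motifs of the pair of regulators; the matched bases are in capitals.
CCL20 promoter, chr2:227813592-227813891, plus strand, kappa B match on the reverse strand 79 bases before the start: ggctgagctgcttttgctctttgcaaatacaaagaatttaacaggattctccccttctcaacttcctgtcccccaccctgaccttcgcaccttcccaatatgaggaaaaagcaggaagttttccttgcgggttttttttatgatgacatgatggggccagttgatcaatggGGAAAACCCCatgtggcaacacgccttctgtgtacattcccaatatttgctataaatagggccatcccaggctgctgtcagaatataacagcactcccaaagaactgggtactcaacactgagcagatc
IL6 promoter, chr7:22726950-22727249, plus strand, kappa B match 73 bases before the start: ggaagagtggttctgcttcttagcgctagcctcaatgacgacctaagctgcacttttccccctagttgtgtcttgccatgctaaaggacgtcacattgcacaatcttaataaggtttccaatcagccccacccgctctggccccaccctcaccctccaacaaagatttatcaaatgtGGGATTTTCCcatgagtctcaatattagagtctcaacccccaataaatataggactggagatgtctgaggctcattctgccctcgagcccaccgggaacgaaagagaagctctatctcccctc
TNFRSF9 promoter, chr1:7940790-7941089, minus strand, kappa B matches on both strands that overlap, 74 and 73 bases before the start: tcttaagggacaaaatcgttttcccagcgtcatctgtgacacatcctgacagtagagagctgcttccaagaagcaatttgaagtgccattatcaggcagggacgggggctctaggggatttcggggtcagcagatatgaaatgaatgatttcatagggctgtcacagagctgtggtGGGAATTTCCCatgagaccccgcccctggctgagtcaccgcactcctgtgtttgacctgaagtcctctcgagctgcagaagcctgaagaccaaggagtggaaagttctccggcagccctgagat
MX1 promoter, chr21:41420308-41420607, plus strand, ISRE match on the reverse strand from base 12 after the start: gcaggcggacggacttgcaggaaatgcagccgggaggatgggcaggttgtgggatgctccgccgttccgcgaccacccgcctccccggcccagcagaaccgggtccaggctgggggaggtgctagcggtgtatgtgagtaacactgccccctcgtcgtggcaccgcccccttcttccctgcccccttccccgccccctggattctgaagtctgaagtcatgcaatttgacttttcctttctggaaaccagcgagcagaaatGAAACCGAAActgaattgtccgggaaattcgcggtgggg
The MX1 window also held 1 kappa B match, which did not overlap the ISRE match and is left in lower case.

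Of 8 CXC chemokines measured, 7 were higher at 10 h and 0 lower, with a median difference of 2.37, beside -0.0041 over all probe sets. CXCL8, the main neutrophil attractant of airway epithelium, had levels of 12.61, 12.54, 12.81 and 12.53 at 10 h, against 9.56, 9.69, 9.39 and 9.47 at 0 h, a rise of 3.09 ± 0.10. CXCL5, another neutrophil chemokine, reached 13.23, 13.35, 13.24 and 13.15 at 10 h, against 10.29, 10.76, 10.73 and 10.50 at 0 h. CXCL2 and CXCL3 of the same group rose by 2.96 ± 0.11 and 2.06 ± 0.13. CXCL10, an interferon-inducible attractant of T cells, had 7.01, 6.80, 6.71 and 6.204 at 10 h, against 3.91, 3.71, 3.95 and 4.03 at 0 h. Its levels at 0 h were among the lowest on the arrays, and all 4 arrays at 10 h were higher by more than 2 log2 units. CXCL16, a membrane-bound chemokine, was the CXC member not called, at -0.07 ± 0.08. Among 8 CC chemokines and fractalkine, 5 were higher and 0 lower, with a median of 1.60. CCL2, the main monocyte attractant, had 12.90, 12.96, 13.03 and 12.85 at 10 h, against 10.29, 10.47, 10.23 and 10.43 at 0 h (difference 2.58 ± 0.08), and CCL22, which attracts regulatory T cells, had 7.98 ± 0.17 at 10 h against 5.69 ± 0.32 at 0 h. Fractalkine (CX3CL1) rose less, by 0.92 ± 0.14, and CCL3, CCL24 and CCL26 were not called, with differences between -0.01 and 0.25. With dim probe sets left out (7244 probe sets then tested), 4 CXC and 3 CC members were still tested and called higher.

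Cytokines followed, with 11 of 18 measured members higher, 1 lower and a median of 0.69. CSF3, the granulocyte growth factor, stood at 10.07, 10.07, 10.01 and 9.58 at 10 h, against 5.88, 5.65, 6.42 and 5.81 at 0 h. IL1A, the sister cytokine of IL1B, had 9.09, 8.99, 8.59 and 7.99 at 10 h, against 4.62, 4.85, 4.46 and 4.79 at 0 h, and the endogenous IL1B gene had 8.39, 8.41, 8.14 and 7.89 at 10 h, against 4.73, 5.04, 4.95 and 4.81 at 0 h. In both genes all arrays at 10 h lay more than 2 log2 units above those at 0 h, with replicate 4 lowest at 10 h. EBI3, a subunit of the cytokines IL27 and IL35, rose by 3.73 ± 0.09, IL32, an intracellular inflammatory protein, by 3.29 ± 0.12 and IL11, a relative of IL6, by 2.86 ± 0.13. TNFSF10, the death ligand TRAIL, was the member that fell, by 0.75 ± 0.30 (adjusted p = 0.0489). That fall lost its call when replicate 1, 2 or 3 at 0 h or replicate 1, 3 or 4 at 10 h was left out. IL15, IL18 and IL34 were not called, at 0.22 ± 0.12, 0.07 ± 0.11 and 0.01 ± 0.10.

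Of 17 receptor and proximal signalling genes measured, 6 were higher and 1 lower, with a median of 0.18. IRAK2, a kinase-like protein of the receptor complex that sustains the signal, had levels of 11.21, 11.25, 11.25 and 11.21 at 10 h, against 8.83, 8.73, 8.96 and 9.10 at 0 h, with a spread of 0.02 between the arrays at 10 h (SD, n = 4). IRAK3, an inhibitor of the same complex, rose by 1.47 ± 0.17 and stayed under the lower quartile at both hours, at 5.90 ± 0.07 at 10 h against 4.43 ± 0.14 at 0 h. MAP3K8, a kinase that activates the ERK pathway downstream of NF-kB1, rose by 0.57 ± 0.09, and the adaptors of TAK1, TAB2 and TAB3, by 0.32 ± 0.09 and 0.53 ± 0.09. SIGIRR, an inhibitory receptor of the family, was the member that fell, by 0.30 ± 0.09 (adjusted p = 0.0107). The receptor IL1R1 and the adaptor MYD88 were not called, at 0.22 ± 0.11 and -0.15 ± 0.09.

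Genes of the NF-kB system itself rose with its targets. Of 16 subunits, inhibitors and kinases, 13 were higher and 0 lower, with a median of 0.77. RELB, the subunit of the slower non-canonical arm, had 9.96, 9.83, 10.02 and 9.95 at 10 h, against 7.87, 7.78, 7.76 and 8.17 at 0 h, and NFKB2, which encodes its partner, had 11.34, 11.17, 11.25 and 11.24 at 10 h, against 9.58, 9.41, 9.41 and 9.72 at 0 h. NFKB1 rose by 1.29 ± 0.08 and the kinase IKBKE by 1.85 ± 0.08, while RELA, the main transactivating subunit, rose by no more than 0.31 ± 0.06. NFKBIA, the classical inhibitor, rose by 0.80 ± 0.06. The kinase genes IKBKB and IKBKG were not called (0.13 ± 0.07 and 0.02 ± 0.10). Of 22 feedback regulators 16 were higher and 1 lower, with a median of 0.50. TNFAIP3, the ubiquitin-editing inhibitor A20, had 11.42, 11.48, 11.08 and 11.19 at 10 h, against 7.89, 7.80, 7.67 and 7.76 at 0 h. ZC3H12A, an RNase that degrades inflammatory transcripts, rose by 1.93 ± 0.14, and TNIP1, a partner of A20, by 1.79 ± 0.08. SOCS3, an inhibitor of STAT signalling, had 9.74 ± 0.05 at 10 h against 7.97 ± 0.06 at 0 h (SD, n = 4 each). TRAF4 was the member that fell, by 0.18 ± 0.07 (adjusted p = 0.0316).

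Among adhesion and immune checkpoint proteins, 10 of 15 were higher and 0 lower. ICAM1, the ligand by which leukocytes hold on to epithelium, had 11.30, 11.24, 11.03 and 10.96 at 10 h, against 7.02, 6.62, 6.84 and 6.72 at 0 h, a rise of 4.33 ± 0.11. CD40, a costimulatory receptor, rose by 1.21 ± 0.14, CD55, which protects cells from complement, by 1.21 ± 0.10 and CD47, a signal against phagocytosis, by 0.93 ± 0.08. VCAM1 and CD83 were not called, at 0.24 ± 0.13 and 0.20 ± 0.12. Of 23 TNF receptors and apoptosis regulators 11 were higher and 4 lower. Over all probe sets 17.7% were higher and 17.0% lower, so the share of falls was near that of all probe sets. TNFRSF9, the costimulatory receptor 4-1BB, had 10.18, 10.39, 10.03 and 9.96 at 10 h, against 6.05, 6.00, 6.00 and 5.96 at 0 h, the highest change of the list (4.13 ± 0.11). The survival genes BCL2A1 and CFLAR rose by 2.12 ± 0.14 and 1.08 ± 0.12. CFLAR had another probe set, which rose by 0.79 ± 0.11. The TRAIL decoy receptor TNFRSF10D fell to 8.75, 8.85, 8.76 and 8.89 at 10 h, against 10.02, 10.06, 10.05 and 10.09 at 0 h, and the death receptor FAS fell by 0.73 ± 0.07.

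Defence and acute-phase proteins were raised in 13 of 21 measured members, and 1 was lower. SERPINA3, a protease inhibitor of the acute phase, had 11.12, 11.37, 11.02 and 10.66 at 10 h, against 7.07, 7.24, 7.15 and 6.70 at 0 h. LCN2, which withholds iron from bacteria, had 11.27, 11.45, 11.57 and 11.12 at 10 h, against 7.26, 7.95, 7.69 and 7.07 at 0 h, and TNFAIP6, a hyaluronan-binding protein, 8.98, 9.33, 9.08 and 8.68 at 10 h, against 4.92, 4.77, 5.17 and 4.57 at 0 h. Complement C3 rose by 1.99 ± 0.06, with arrays of 11.95 to 12.14 at 10 h and 10.03 to 10.08 at 0 h. SLPI, a protease inhibitor of airway mucus, rose by 1.46 ± 0.26, and SERPINB1, an inhibitor of neutrophil elastase, fell by 0.55 ± 0.06. SOD2, the mitochondrial superoxide dismutase, had the least spread of the large changes, with 11.68, 11.73, 11.68 and 11.71 at 10 h, against 8.39, 8.33, 8.62 and 8.40 at 0 h and a rise of 3.26 ± 0.06 (adjusted p = 3.68e-30). SLC6A14, an amino acid transporter, had 7.61, 7.85, 7.83 and 6.95 at 10 h, against 4.59, 4.56, 4.66 and 4.20 at 0 h and so a wider spread at 10 h.

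Extracellular proteases and their inhibitors were higher in 13 of 19 and lower in 0. The collagenase MMP1 had 7.79, 8.12, 7.39 and 7.31 at 10 h, against 4.97, 5.18, 4.97 and 5.05 at 0 h, the stromelysin MMP10 rose by 2.07 ± 0.18, and the lysosomal protease CTSS by 2.12 ± 0.07. The plasminogen activator gene PLAU and the receptor gene PLAUR rose by 1.28 ± 0.10 and 0.84 ± 0.10, while the inhibitor TIMP1 was not called (0.08 ± 0.09). Of 25 matrix proteins and integrins 10 were higher and 5 lower, beside 17.7% and 17.0% of all probe sets. LAMB3, a laminin chain of the epithelial basement membrane, had 10.13, 10.48, 9.98 and 10.10 at 10 h, against 7.49, 6.96, 7.36 and 7.42 at 0 h, and ITGB8, an integrin that activates TGF beta, rose by 2.32 ± 0.10. ITGB4, the integrin chain of hemidesmosomes, fell to 9.61, 9.49, 9.62 and 9.77 at 10 h, against 10.88, 10.99, 10.88 and 11.26 at 0 h.

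Interferon-stimulated genes were raised as a block at 10 h, with 46 of 54 measured members higher, 0 lower and a median of 0.92. These genes encode antiviral proteins that interferons induce. MX1, a GTPase that traps viral nucleocapsids, had 8.12, 9.02, 8.24 and 7.61 at 10 h, against 5.63, 5.00, 5.08 and 5.51 at 0 h, a rise of 2.94 ± 0.22. IFIT1, which binds viral RNA, had 8.00, 8.96, 8.22 and 7.63 at 10 h, against 6.15, 5.93, 6.23 and 6.39 at 0 h, and OAS2, which senses double-stranded RNA, had 7.28, 7.79, 6.93 and 6.45 at 10 h, against 5.00, 5.24, 5.46 and 5.35 at 0 h. In these 3 genes replicate 2 was the highest and replicate 4 the lowest array at 10 h, and so it was for the mean of the 54 genes, at 8.03, 8.33, 8.00 and 7.75 at 10 h, against 7.04, 7.03, 7.06 and 7.08 at 0 h. The guanylate-binding proteins GBP2 and GBP3 rose by 2.07 ± 0.12 and 2.17 ± 0.10. ISG15, a ubiquitin-like modifier, rose by 0.23 ± 0.09, and USP18, which removes it, was not called (-0.28 ± 0.17). The interferon lambda gene IFNL3, looked up after its value was seen, was not called (-0.11 ± 0.16). With dim probe sets left out, 19 of the members were still tested and 13 of these were called higher.

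Factors that carry interferon and cytokine signals rose in 20 of 32 measured members and fell in 4. STAT5A had 8.85, 9.14, 8.79 and 8.57 at 10 h, against 6.96, 6.88, 7.10 and 6.91 at 0 h, and the interferon gamma receptor chain IFNGR1 rose by 1.74 ± 0.08. The type I receptor chain IFNAR2 rose by 1.29 ± 0.09, and the transcription factors IRF1 and IRF7 by 1.34 ± 0.17 and 1.30 ± 0.16. STAT4, JAK3, IL6R and IRF5 fell, by 0.80 ± 0.12, 0.55 ± 0.11, 0.48 ± 0.10 and 0.27 ± 0.10. Of 8 MHC class I and immunoproteasome genes 6 were higher and 0 lower. B2M, the light chain of MHC class I, had 10.98 ± 0.16 at 10 h against 9.94 ± 0.24 at 0 h, the proteasome subunit PSMB10 rose by 1.07 ± 0.12, and the peptide trimmer ERAP1 by 0.79 ± 0.07.

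**Figure D3:**
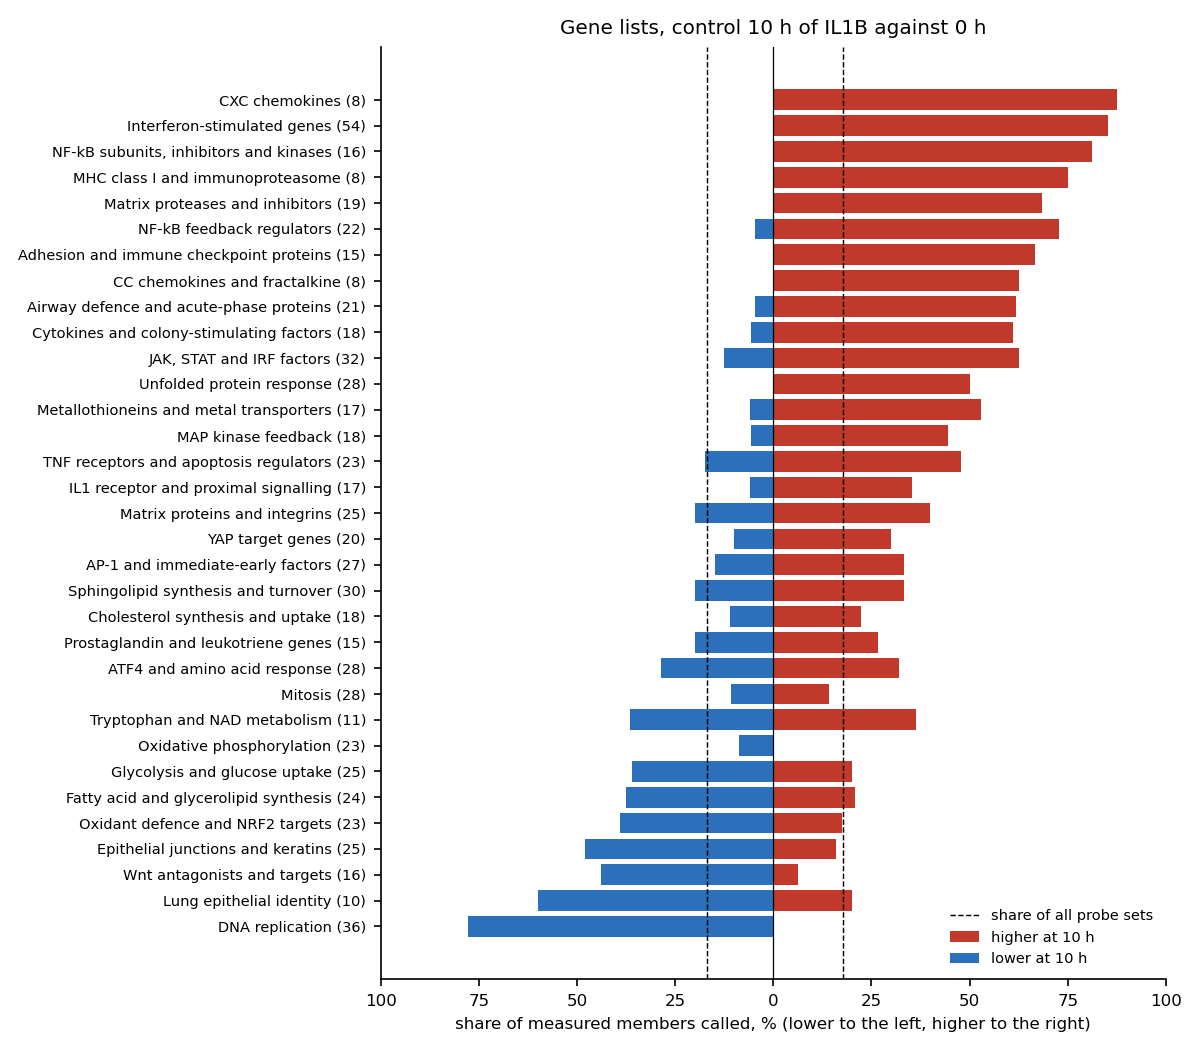
For each gene list with 8 or more measured members (their number in brackets), bars give the percentage of members called higher at 10 h of IL1B than at 0 h in control cells (red, to the right) and the percentage called lower (blue, to the left). Dashed lines mark the same percentages over all probe sets, 17.7% and 17.0%. Among the lists drawn, CXC chemokines stand at the top with 7 of 8 higher and DNA replication at the bottom with 28 of 36 lower.

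The falls were smaller than the rises, and 4 probe sets were over 4-fold lower. RAP1GAP had 7.33, 7.41, 7.41 and 7.09 at 10 h, against 9.48, 9.69, 9.39 and 9.36 at 0 h. NRG4, a ligand of the receptor ERBB4, had 4.72, 4.74, 4.70 and 4.84 at 10 h, against 6.68, 7.02, 7.07 and 6.59 at 0 h, and the cell adhesion protein PCDH9 had 6.78, 6.91, 6.43 and 6.33 at 10 h, against 8.60, 8.64, 8.68 and 8.68 at 0 h. DEPTOR, an inhibitor of the kinase mTOR, had 6.37, 6.28, 6.58 and 6.32 at 10 h, against 8.16, 8.03, 8.21 and 8.06 at 0 h. These 4 genes fell by 2.17 ± 0.11, 2.09 ± 0.17, 2.04 ± 0.12 and 1.73 ± 0.12, and at 10 h NRG4 lay under the lower quartile on every array. MAP2K6, a kinase that activates p38, had 7.37 ± 0.09 at 10 h against 9.09 ± 0.09 at 0 h (SD, n = 4 each), and SFRP4, a secreted Wnt antagonist, 5.95 ± 0.09 at 10 h against 7.46 ± 0.04 at 0 h. RAB26, a GTPase of secretory granules, fell by 1.66 ± 0.14, the calcium sensor NCALD by 2.05 ± 0.20, the sodium channel SCN9A by 1.51 ± 0.11 and the sialyltransferase ST8SIA4 by 1.47 ± 0.19. TMT1B, NCKAP5, STK32B, TPPP3, PCYOX1L, AK5, GAL3ST1, ANXA13 and SGK2 fell by 1.48 to 1.79. The small nucleolar RNA SNORD34, which guides RNA modification, fell to 8.29, 8.23, 7.76 and 7.99 at 10 h, against 9.48, 9.84, 10.06 and 9.76 at 0 h.

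Epithelial junction and keratin genes were lower in 12 of 25 measured members and higher in 4, with a median of -0.235. CDH1, the epithelial cadherin, had 9.07, 9.49, 9.16 and 9.37 at 10 h, against 10.42, 10.62, 10.63 and 10.40 at 0 h, a fall of 1.24 ± 0.10 (adjusted p = 4.38e-12). KRT19 fell by 0.99 ± 0.09, KRT8 by 0.53 ± 0.09 and KRT18 by 0.49 ± 0.07. The plakophilin PKP2 and the claudin CLDN3 fell by 0.93 ± 0.07 and 0.88 ± 0.08, and EPCAM fell by 0.69 ± 0.14. CLDN12, CLDN1, JUP and CTNNB1 were the members that rose, by 0.84 ± 0.07, 0.51 ± 0.06, 0.25 ± 0.06 and 0.37 ± 0.09. The mesenchymal genes VIM and CDH2 gave -0.19 ± 0.07 (called lower) and -0.04 ± 0.08 (not called), and SNAI1, SNAI2 and ZEB1 were not called, at -0.41 ± 0.17, 0.09 ± 0.20 and 0.19 ± 0.09. ZEB2, which was outside the lists and was looked up after its value was seen, rose by 1.46 ± 0.09. Among the 10 lung epithelial markers, 6 fell and 2 rose. The lysosomal protein LAMP3, a marker of alveolar type II and dendritic cells, was one of those that rose, at 8.44, 8.08, 8.17 and 7.95 at 10 h, against 5.45, 5.16, 5.33 and 5.25 at 0 h, and MUC1 the other, by 0.92 ± 0.11.

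DNA replication genes fell together, with 28 of 36 measured members lower, 0 higher and a median of -0.395. GINS2, a subunit of the replicative helicase, had 9.99, 10.16, 10.03 and 10.21 at 10 h, against 10.97, 10.98, 11.30 and 10.63 at 0 h, and MCM5 of the same helicase had 9.67, 9.66, 9.58 and 9.77 at 10 h, against 10.36, 10.17, 10.46 and 10.33 at 0 h. The S-phase regulators E2F2 and CCNE2 fell by 0.72 ± 0.10 and 0.72 ± 0.14. Each change was under 2-fold in size, and the mean of the list was 8.80 to 8.93 at 10 h, against 9.18 to 9.30 at 0 h. Mitosis genes did not follow, with 4 higher and 3 lower of 28 and a median of 0.01, and CDK1 and MKI67 were not called (-0.01 ± 0.17 and 0.01 ± 0.11). The difference between these lists was not tested. KIF11, a mitosis gene called lower (-0.27 ± 0.08), lost its call without all arrays numbered 4 (-0.257, adjusted p = 0.0612). Of 16 Wnt antagonists and targets 7 were lower and 1 higher. The higher one, SFRP1 (0.30 ± 0.08), lost its call without all arrays numbered 4 (0.257, adjusted p = 0.0622). RNF43 and LGR4, a ubiquitin ligase and a receptor that set the level of Wnt receptors, fell by 0.73 ± 0.13 and 0.53 ± 0.06, and AXIN2, a widely used target gene, by 0.48 ± 0.08.

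Oxidant defence and NRF2 target genes were lower in 9 of 23 and higher in 4. HMOX1, the haem-degrading enzyme, fell to 10.72, 10.73, 10.79 and 10.76 at 10 h, against 11.35, 11.57, 11.62 and 11.35 at 0 h, and OSGIN1, catalase (CAT) and the glutathione synthesis genes GCLC and GCLM fell by 0.93 ± 0.10, 0.56 ± 0.06, 0.46 ± 0.06 and 0.41 ± 0.07. Beside SOD2, the superoxide-producing oxidase NOX1 rose, by 1.45 ± 0.34. Metal genes were higher in 9 of 17 and lower in 1, led by the zinc importer SLC39A8 with 11.89, 11.90, 11.77 and 11.73 at 10 h, against 9.95, 9.66, 9.69 and 9.92 at 0 h. The iron exporter SLC40A1 fell by 0.47 ± 0.15 (adjusted p = 0.0122), a call lost without replicate 2 at 0 h (-0.39, adjusted p = 0.0545) or replicate 3 at 10 h (-0.40, adjusted p = 0.0534).

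Lipid mediator genes were called in both directions, and over all probe sets 17.7% were called higher and 17.0% lower. Of 15 prostaglandin and leukotriene genes 4 were higher and 3 lower, near those shares. PTGS2, the inducible cyclooxygenase, was already high at 0 h and had 12.96, 13.21, 13.16 and 13.001 at 10 h, against 12.08, 12.49, 12.41 and 12.08 at 0 h. The prostaglandin E synthase PTGES rose by 0.95 ± 0.06 and the phospholipase PLA2G4C by 1.29 ± 0.10, while the receptors PTGER2 and PTGER4 fell by 0.52 ± 0.17 and 0.37 ± 0.11. Of 30 sphingolipid genes 10 were higher and 6 lower, with a median of 0.03. SPNS2, which exports sphingosine 1-phosphate, had 8.53, 8.60, 8.64 and 8.50 at 10 h, against 6.02, 6.17, 6.53 and 6.27 at 0 h. SPHK1, the kinase that makes this lipid, rose by 1.496 ± 0.13, its phosphatase SGPP2 by 1.32 ± 0.15 and the glucosylceramide synthase UGCG by 0.90 ± 0.14. CERS4, a ceramide synthase, fell by 1.03 ± 0.10. ORMDL3, the gene silenced in the other arm, had 7.54, 7.77, 7.64 and 7.55 at 10 h, against 7.36, 7.24, 7.18 and 6.91 at 0 h (difference 0.45 ± 0.11, adjusted p = 0.00109), its paralog ORMDL1 rose by 0.37 ± 0.09 and ORMDL2 was not called (0.08 ± 0.06).

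Among fatty acid and glycerolipid genes 5 of 24 were higher and 9 lower. ACSL4 and ACSL5, which activate long-chain fatty acids, rose by 1.63 ± 0.06 and 1.27 ± 0.14, and the elongase ELOVL6 fell by 0.60 ± 0.12. Cholesterol synthesis genes were called in 6 of 18, 4 higher and 2 lower, a share near that of all probe sets, and the largest change was that of SC5D (0.49 ± 0.09). Of 25 glycolysis genes 5 were higher and 9 lower. The transporter SLC2A6 and the regulator PFKFB4 rose by 1.28 ± 0.09 and 1.00 ± 0.14, and SLC2A3, PDK2 and PFKM fell by 1.06 ± 0.13, 0.64 ± 0.08 and 0.63 ± 0.11, while GAPDH and LDHA were not called (-0.08 ± 0.05 and -0.04 ± 0.06). Oxidative phosphorylation showed 2 lower and 0 higher of 23, fewer than over all probe sets, namely NDUFV1 and NDUFB5 at -0.23 ± 0.07 and -0.21 ± 0.08. The NDUFV1 call was lost without replicate 1 at 0 h (-0.165, adjusted p = 0.102) or without all arrays numbered 4 (-0.231, adjusted p = 0.062), and the NDUFB5 call when any of 6 arrays was left out, with adjusted p-values of 0.0577 to 0.145. In tryptophan and NAD metabolism 4 were higher and 4 lower of 11, and IDO1, which degrades tryptophan, had 6.11, 6.83, 6.197 and 5.65 at 10 h, against 3.94, 3.64, 3.95 and 4.45 at 0 h.

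Stress response genes showed a mixed picture. Of 28 unfolded protein response genes 14 were higher and 0 lower, with a median of 0.20. DNAJB9 and DNAJC3, cochaperones of the endoplasmic reticulum, rose by 1.09 ± 0.11 and 0.85 ± 0.09, but the chaperone HSPA5 and the factor XBP1 were not called (0.07 ± 0.06 and 0.11 ± 0.17). Of 28 ATF4 and amino acid response genes 9 were higher and 8 lower. CHAC1, which degrades glutathione, had 10.31 ± 0.13 at 10 h against 8.62 ± 0.13 at 0 h (SD, n = 4 each), and the transcription factors CEBPB and CEBPD rose by 1.31 ± 0.08 and 1.34 ± 0.07. The serine synthesis genes PHGDH, PSAT1 and PSPH fell by 1.02 ± 0.16, 0.82 ± 0.09 and 0.68 ± 0.17, and ATF4 itself was not called (-0.01 ± 0.17).

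Immediate-early genes were higher in 9 of 27 and lower in 4, beside 17.7% and 17.0% of all probe sets. FOS averaged 10.79 ± 0.26 at 10 h against 11.85 ± 0.17 at 0 h (SD, n = 4 each), a fall, KLF2 and MYC fell by 0.70 ± 0.10 and 0.46 ± 0.06, and FOSL2 and JUNB rose by 0.82 ± 0.08 and 0.53 ± 0.16. The MAP kinase phosphatases DUSP16 and DUSP10 rose by 1.89 ± 0.07 and 1.32 ± 0.07, among 8 higher and 1 lower of 18 feedback genes. Of 20 YAP targets 6 were higher and 2 lower, a called share near that of all probe sets (34.7%). FOXF2 and F3 were among those that rose, by 0.84 ± 0.10 and 0.59 ± 0.09. The 2 that fell were the matricellular gene CCN2, by 0.66 ± 0.11, and AXL, a receptor kinase, by 0.52 ± 0.14.

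The second comparison asked which of these levels were those of a late response, by setting 10 h against 2 h of IL1B in the same arm. It used the same arrays at 10 h as the comparison with 0 h, so the 2 sets of differences are not independent. Of all probe sets 4634 were called (32.0%), 2442 higher at 10 h than at 2 h (16.9%) and 2192 lower (15.1%). Of 15 adhesion and immune checkpoint genes 7 were lower at 10 h than at 2 h, 3 were higher and 5 were not called. SELE, an endothelial adhesion molecule, fell most, with 5.32 ± 0.20 at 10 h against 9.52 ± 0.37 at 2 h (SD, n = 4 each), a difference of -4.20 ± 0.15. RASSF5, PTX3, CD83, IL1A, IRF1, STX11 and NFKBID followed with falls of 2.40 to 3.57. RASSF5, which activates adhesion in lymphocytes, and CD83, a marker of activated dendritic cells, had fallen back by 10 h, with differences from 0 h of -0.72 ± 0.10 (called lower) and 0.20 ± 0.12 (not called). ICAM1 and CCL20 were lower than at 2 h too, by 1.97 ± 0.11 and 1.64 ± 0.15. Of 16 NF-kB subunits, inhibitors and kinases 11 were lower and 0 higher than at 2 h, and all 11 were still above 0 h. Of 22 feedback regulators 16 were lower and 0 higher, and 12 of these were above 0 h. Cytokines gave 11 lower and 3 higher of 18.

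Among the 20 genes with the largest rises over 0 h, 9 were lower than at 2 h, 6 were higher and 5 were not called. CCL5 (0.41 ± 0.15) and LCN2 (2.04 ± 0.22) were among the higher ones, and SOD2 (0.09 ± 0.06), CXCL8 (-0.20 ± 0.10) and SERPINA3 (-0.06 ± 0.17) were not called. The 20 genes with the largest falls from 0 h were all lower at 10 h than at 2 h as well, beside 15.1% of all probe sets. They were chosen for low levels on the same arrays at 10 h, so this count is in part fixed by the choice.

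Other genes were higher at 10 h than at 2 h. IGFBP1, a binding protein of insulin-like growth factors, rose most, with 11.62, 11.82, 11.67 and 11.70 at 10 h, against a mean of 8.40 ± 0.07 at 2 h (difference 3.30 ± 0.10). MX1 and IFIT1 rose by 2.95 ± 0.22 and 2.20 ± 0.24, the hyaluronan-degrading protein CEMIP by 2.80 ± 0.14, IL11 by 2.75 ± 0.13, SERPINB7, a protease inhibitor of epithelium, by 2.12 ± 0.19 and SPNS2 by 2.09 ± 0.12. CCN1, a matricellular protein, differed by 2.61 ± 0.14 from 2 h, but at 10 h it was near its 0 h level (0.06 ± 0.14 against 0 h, not called). Its means over 0, 2, 4, 8 and 10 h were 9.52, 6.97, 8.50, 9.76 and 9.58. Of 54 interferon-stimulated genes 38 were higher than at 2 h and 3 lower, and all 38 were also above 0 h. For MX1 the means over 0, 2, 4, 8 and 10 h were 5.30, 5.30, 7.43, 8.81 and 8.25. DNA replication genes were lower than at 2 h in 23 of 36 and epithelial junction genes in 15 of 25.

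**Figure D4:**
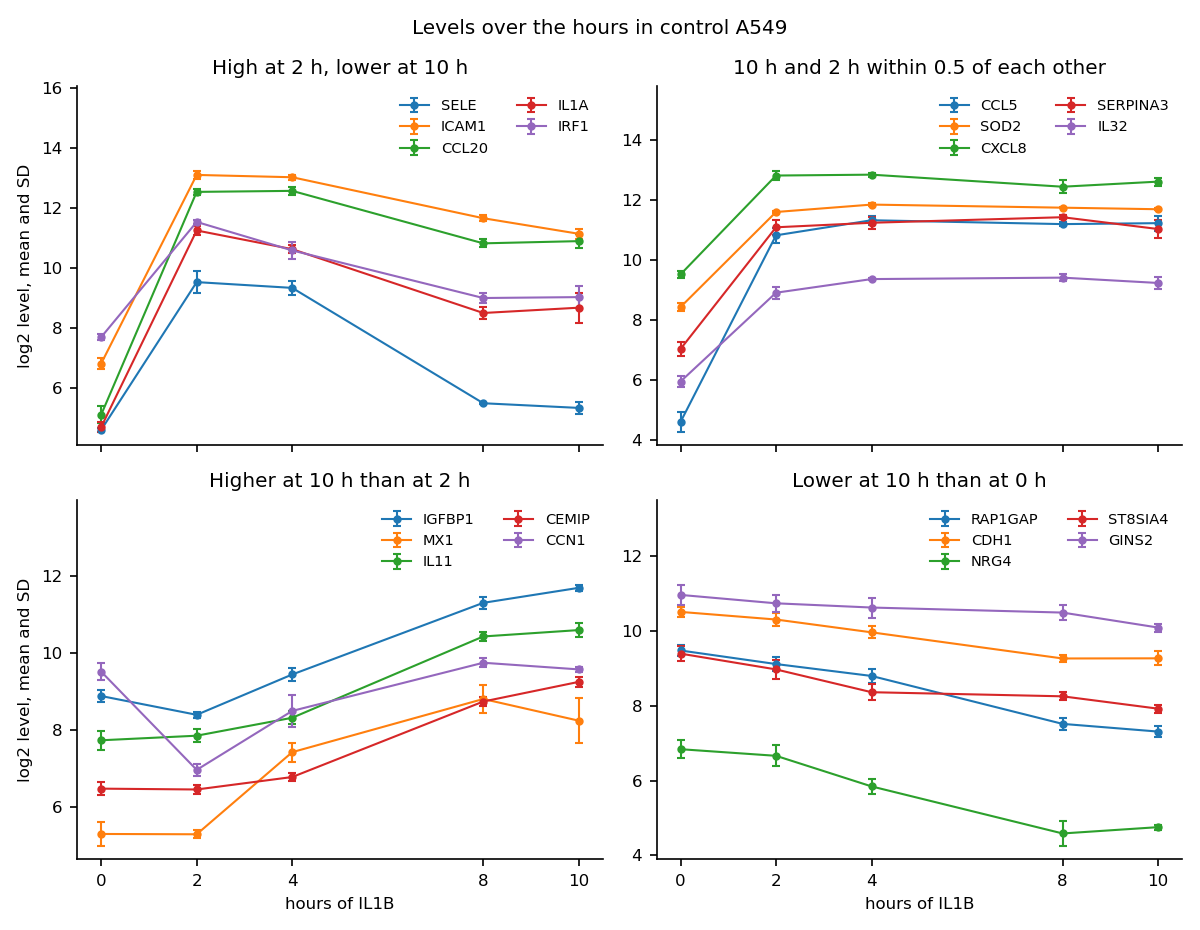
Mean log2 levels (points) with SD over 4 arrays (3 at 8 h) at 0, 2, 4, 8 and 10 h of IL1B in control cells. SELE, ICAM1, CCL20, IL1A and IRF1 stand highest at 2 or 4 h, CCL5, SOD2, CXCL8, SERPINA3 and IL32 have 2 h and 10 h means within 0.5 of each other, IGFBP1, IL11 and CEMIP are highest at 10 h, CCN1 is lowest at 2 h, and RAP1GAP, CDH1, NRG4, ST8SIA4 and GINS2 are lower at 10 h than at 0 h.

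The third comparison set 10 h against 8 h, to see what was still moving. Of all probe sets 417 were called (2.88%), 310 higher at 10 h (2.14%) and 107 lower (0.739%), and 1 rise and 3 falls passed 2-fold. The count depended on single arrays: it was 140 without replicate 3 at 8 h and 607 without replicate 2 at 10 h, and it lay between 166 and 244 when one of replicates 1, 3 and 4 at 10 h or of replicates 1 and 2 at 8 h was left out. Interferon-stimulated genes were lower at 10 h than at 8 h in 17 of 54 and higher in 0, and 49 of the 54 means were below those at 8 h. The median difference was -0.374 for the list and 0.0032 over all probe sets. The mean of the list ran from 7.75 to 8.33 over the arrays at 10 h, so its members moved together and are not separate evidence. Without single arrays between 4 (replicate 2 at 8 h left out) and 25 (replicate 2 at 10 h left out) were called lower, and 5 with a covariate for small nucleolar RNA level. IDO1, SAMD9L, IFIT1, XAF1 and CXCL10 had the largest falls, at -1.10 ± 0.26, -1.04 ± 0.15, -1.04 ± 0.26, -0.97 ± 0.19 and -0.94 ± 0.19. IDO1 lost its call without replicate 1 or 3 at 8 h or replicate 1 or 4 at 10 h (adjusted p = 0.0529 to 0.0984), IFIT1 without replicate 1 or 2 at 8 h or replicate 1, 3 or 4 at 10 h (0.0548 to 0.149), and XAF1 without replicate 2 at 8 h (adjusted p = 0.0573). With only the groups compared, the calls of IDO1 (adjusted p = 0.0582), IFIT1 (adjusted p = 0.102) and XAF1 (adjusted p = 0.102) were lost, and with the covariate those of IDO1 (adjusted p = 0.118), IFIT1 (adjusted p = 0.159) and CXCL10 (adjusted p = 0.0526). The largest rises were those of DET1 (1.22 ± 0.28), a subunit of a ubiquitin ligase complex, SLCO4C1 (0.94 ± 0.17), an organic anion transporter, NAV1 (0.91 ± 0.15), a microtubule-binding protein, AHNAK2 (0.81 ± 0.13), a large scaffold protein, and CFAP44 (0.79 ± 0.14), a protein of the ciliary axoneme. DET1 had another, brighter probe set that was not called against 8 h (0.28 ± 0.13, adjusted p = 0.241) or against 0 h (0.08 ± 0.12), while the named one rose against 0 h by 0.96 ± 0.26. SLCO4C1 and AHNAK2 were at 10 h still below 0 h (-0.68 ± 0.15 and -0.73 ± 0.12). The DET1 call was lost without replicate 3 at 8 h (1.11, adjusted p = 0.0795) or replicate 1 at 10 h (1.06, adjusted p = 0.0562).

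The last comparison asked whether 10 h of IL1B changed the ORMDL3 knockdown arm differently from the control arm. ORMDL3 stood at 5.28 ± 0.05 at 10 h and 5.38 ± 0.17 at 0 h in knockdown, against 7.63 ± 0.11 at 10 h and 7.17 ± 0.19 at 0 h in controls (SD, n = 4, 3, 4 and 4). The difference between the responses was called for 12 of 14488 probe sets (0.0828%), all with the lower response in knockdown, and 11 had a gene name. These were the receptor TNFRSF9, IL6, EBI3, the dopamine receptor DRD1, ICAM1, NFKB2, the ammonium transporter RHCG, the carbonic anhydrase-related protein CA8, TNFAIP3, ACSL4 and SLC39A8. TNFRSF9 averaged 10.45 ± 0.12 at 10 h and 7.44 ± 0.36 at 0 h in knockdown, against 10.14 ± 0.19 at 10 h and 6.00 ± 0.04 at 0 h in controls, a difference in response of -1.13 ± 0.16 (adjusted p = 0.000319). In 10 of the 11 genes the 0 h mean was higher in knockdown than in controls, ICAM1 being the exception, and in 9 the 10 h mean was lower. A lower response in knockdown requires a higher 0 h mean there, a lower 10 h mean or both. These counts therefore follow in part from how the genes were chosen. ICAM1 averaged 10.15 ± 0.25 at 10 h and 6.65 ± 0.07 at 0 h in knockdown, against 11.13 ± 0.17 at 10 h and 6.80 ± 0.17 at 0 h in controls (-0.83 ± 0.16, adjusted p = 0.0172). IL6 differed by -0.92 ± 0.18 (adjusted p = 0.0201), EBI3 by -0.85 ± 0.13 (adjusted p = 0.000876) and DRD1 by -0.83 ± 0.16 (adjusted p = 0.0164). DRD1 was the one gene of the 11 with a mean below 0 h in knockdown at 10 h, with a change of -0.19 in knockdown and 0.65 in controls. The count rested on the pooled spread of all 38 arrays and on single arrays: 0 probe sets were called when limma was fitted to the 15 arrays of these 4 groups alone, while 869 had an unadjusted p under 0.05 in the fit of all arrays, and between 4 and 19 were called when 1 array was left out. The count was 4 without knockdown replicate 1 at 0 h, 5 without control replicate 2 at 0 h or control replicate 1 at 10 h, 7 without knockdown replicate 4 at 10 h, and 19 without control replicate 4 at 0 h. TNFRSF9 and EBI3 kept their calls with each array left out in turn. IL6 lost its call without replicate 2 at 0 h or 1 or 2 at 10 h in controls or replicate 1 at 0 h or 3 or 4 at 10 h in knockdown (adjusted p = 0.0515 to 0.119). DRD1 lost it without replicate 2 at 0 h or 1 at 10 h in controls or replicate 1 at 0 h in knockdown (0.0537 to 0.104), and ICAM1 without those arrays, replicate 2 at 10 h in controls, replicate 2 at 0 h in knockdown or replicate 4 at 10 h in knockdown (0.0509 to 0.0893). Without all arrays numbered 4, 6 probe sets were called, and IL6 (adjusted p = 0.066) and DRD1 (adjusted p = 0.238) were not among them. CCL5 and CCL20 were not called, at -0.26 ± 0.21 and -0.58 ± 0.22.

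**Figure D5:**
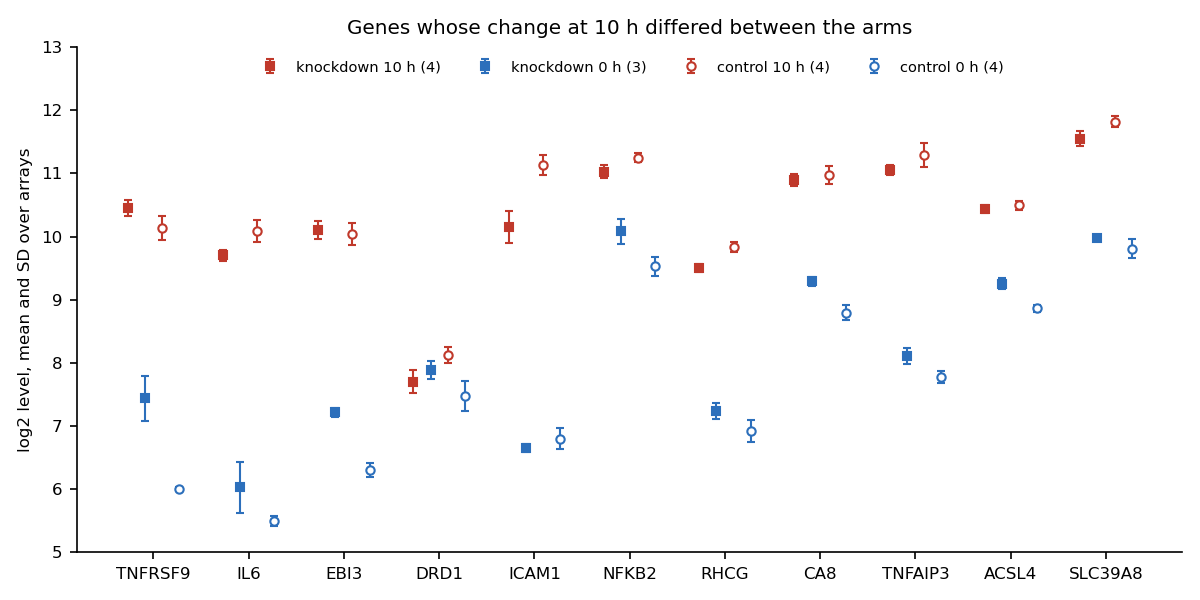
Mean log2 level and SD of the 11 named genes whose change at 10 h of IL1B differed between the arms, in knockdown at 10 h (4 arrays) and 0 h (3 arrays, squares) and in controls at 10 h and 0 h (4 arrays each, open circles). For TNFRSF9 the arms lie close at 10 h (10.45 in knockdown, 10.14 in controls) and apart at 0 h (7.44 in knockdown, 6.00 in controls).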

How the data were processed

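RNA of A549 cells was measured on Affymetrix arrays. The authors deposited 1 table of log2 levels, with Affymetrix Power Tools, RMA, limma 3.22.7 and hg19 named, without role or order, per the submitters' processing notes; RMA corrects background and quantile-normalizes, which can compress changes of dim probe sets. The table held 14488 probe sets and 38 arrays. Groups were taken from the sample titles. Gene symbols came from the platform annotation, updated by Entrez ID through RefSeq (12121 matched): 12132 probe sets had 1 symbol, 628 several and 1728 none, and those without 1 symbol were not named. More than 1 probe set was present for 209 genes.

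Each of 10 groups got its own mean in 1 linear model over all 38 arrays, fitted by lmFit and eBayes of limma 3.58.1 (R 4.3.3), with 28 residual and 4.5 prior degrees of freedom. Calls rest on Benjamini-Hochberg adjusted p-values under 0.05, adjusted over the whole table. The fit was tested on simulated data. The rule for named genes took the 20 highest and 20 lowest called at 10 h against 0 h, up to 5 called members with the largest changes in each gene list and members at its extremes that were not called, the 8 highest and 8 lowest against 2 h, the 5 highest and 5 lowest against 8 h and between the arms, and ORMDL3. Other list members in the text were named after their values were seen. A list took, per gene, the probe set with the highest mean. The members, lists and rule were chosen with earlier results of these data known. Nothing in the labels says whether replicates came from separate cultures, so the p-values measure the spread between these arrays, which may be technical. The number of arrays limits the precision. Alternatives were a replicate block, only the groups compared, a variance trend with robust fitting, array weights, quantile normalization, median centring, dim probe sets left out, each array left out in turn and, added after the data were seen, a covariate for small nucleolar RNA level and all arrays numbered 4 left out.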

Additional observations from a re-analysis of the deposited data

Results flagged for a closer look

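Among the 187 named probe sets, the arrays at 10 h and at 0 h gave 374 groups of 4, and in 23 of them 1 array stood apart from the other 3, its gap to the nearest one divided by the group's range, exceeding Dixon's critical value for 4 values. Chance flags about 1 in 20 groups. At 10 h, replicate 4 was the lowest array for PI3 (log2 level 9.96), CSF3 (9.58), CX3CL1 (6.52) and BCL2A1 (7.19), and the highest for STK32B (7.90). Replicate 2 at 10 h was the lowest for TAB3 (9.86) and WWC1 (9.84) and the highest for AXIN2 (7.83), ACSL4 (10.61) and SLC2A6 (10.56). Replicate 1 at 10 h was the lowest for NCKAP5 (5.58) and B2M (10.74) and the highest for CEBPD (11.48). Replicate 3 at 10 h was the lowest for SCN9A (6.10) and OSGIN1 (7.47) and the highest for PTGES (11.44). At 0 h, replicate 1 was the highest for NFKB1 (8.88) and the lowest for KLF2 (8.13), replicate 2 the lowest for EBI3 (6.14), and replicate 3 the lowest for CD68 (9.93). Replicate 4 at 0 h was the lowest for FOSB (8.60) and PFKFB4 (6.26) and the highest for SEC24D (9.19).

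The change at 10 h differed between the ORMDL3 knockdown and control arms, by limma's test of the difference, for 12 probe sets. The difference, knockdown minus control on the log2 scale, was -1.13 for TNFRSF9, -0.92 for IL6, -0.85 for EBI3, -0.83 for ICAM1, -0.83 for DRD1, -0.78 for NFKB2, -0.77 for the probe set without a gene name, -0.65 for RHCG, -0.58 for CA8, -0.57 for TNFAIP3, -0.45 for ACSL4 and -0.45 for SLC39A8.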

How the results depend on the processing

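With dim probe sets left out, 7244 were tested, and 2966 were called at 10 h against 0 h and 2712 against 2 h. These are larger shares of the probe sets tested than the 34.7% and 32.0% in the main fit. Against 8 h the count of 417 became 172 with only the groups compared, 1559 with array weights, 121 with a covariate for small nucleolar RNA level and 258 when all arrays numbered 4 were dropped; the share called higher was 74.3%, against 62.3% with array weights and 64.7% with array medians subtracted. The 12 probe sets that differed between the arms became 0 with only the groups compared, 46 with array weights, 26 with the small nucleolar RNA covariate and 6 without all arrays numbered 4. The cause was not tested. With 1 array left out, the counts were 4423 to 4877 against 0 h, 4061 to 4459 against 2 h, 140 to 607 against 8 h and 4 to 19 between the arms. Replicate numbers are shared across groups, and deviations of same-numbered arrays at 10 h and 0 h correlated at 0.11, 0.125, -0.101 and 0.242. Arrays 1 and 4 correlated best with their own number, and arrays 2 and 3 did not. These values do not settle whether the numbers pair the arrays, and the main model left the numbers out. The replicate block gave 5679 calls against 0 h, 5256 against 2 h, 601 against 8 h and 38 between the arms. No gene taken by the naming rule changed direction, but the balance of calls did. Against 0 h, 2317 were higher and 2799 lower with quantile normalization, and 2379 higher and 2721 lower with array medians subtracted (2568 and 2462 as reported). Lower calls also outnumbered higher ones without replicate 4 at 0 h (2471 and 2406) or replicate 1 at 10 h (2306 and 2281). So they did with the small nucleolar RNA covariate (2674 and 2668) and without all arrays numbered 4 (2339 and 2290). Against 2 h, 2288 were higher and 2391 lower with array medians subtracted (2442 and 2192 as reported). Of the 187 changes at 10 h against 0 h taken by the naming rule, 6 genes lost the call in 16 refits with an array left out and 3 genes in 3 other settings. The 16 taken against 2 h kept theirs in every setting run. Genes named after their values were seen, TNFSF10 among them, are not in these counts. Of the list counts, 1148 stayed within 1.5 times the main count and 72 did not. Levels near the lower end of the arrays have no detection call, which limits what small changes there show.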

Other observations

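Genes outside the lists were looked up after their values were seen, so what follows describes them. DLL4, a ligand of Notch receptors, averaged 9.48 ± 0.21 at 10 h against 6.96 ± 0.29 at 0 h (log2 level, SD, n = 4 each), and EFNA1, a ligand of Eph receptors, 10.41 ± 0.21 at 10 h against 8.11 ± 0.28 at 0 h. ASS1, an enzyme of arginine synthesis, averaged 11.71 ± 0.11 at 10 h against 9.45 ± 0.22 at 0 h. HSD11B1, which activates cortisone, rose by 1.56 ± 0.10, CYP7B1, an oxysterol hydroxylase, by 1.58 ± 0.10 and the vitamin D receptor VDR by 1.38 ± 0.12 (log2 difference ± SE). Transporters went both ways: the ammonium transporter RHCG rose by 2.91 ± 0.09 and the aquaglyceroporin AQP9 by 2.09 ± 0.13, while AQP3, the epithelial sodium channel subunit SCNN1A, the bicarbonate transporter SLC4A4 and the drug exporter ABCG2 fell by 1.20 ± 0.16, 1.09 ± 0.12, 1.22 ± 0.14 and 1.33 ± 0.07. Among transcription factors ZEB2 rose by 1.46 ± 0.09, and GRHL3, DBP and NFATC2 fell by 1.33 ± 0.13, 1.31 ± 0.11 and 1.30 ± 0.10. The metabolic genes BAAT, KHK, EPHX2 and AS3MT fell by 1.31 to 1.47, and TFF1, a secreted mucosal peptide, IGFL1 and G0S2, an inhibitor of lipolysis, rose by 2.20 ± 0.24, 2.80 ± 0.12 and 1.97 ± 0.11.

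Of 136 long noncoding RNA probe sets 6 were called higher at 10 h than at 0 h and 36 lower, with a median of -0.117. Over all probe sets 17.7% were called higher and 17.0% lower. LINC02870 and GAS6-AS1 fell by 1.46 ± 0.10 and 1.26 ± 0.16, and ARHGAP5-AS1 and MIR31HG rose by 0.68 ± 0.08 and 0.45 ± 0.07. Whether these probe sets separate strands was not tested, so an antisense RNA and its partner cannot be told apart. Of 29 microRNA genes 1 was called, a smaller share than the 34.7% of all probe sets. It was MIR21, at 8.55 ± 0.11 at 10 h against 7.46 ± 0.20 at 0 h (difference 1.09 ± 0.24, adjusted p = 0.000417 by limma). The gene next to it, VMP1, differed by 0.17 ± 0.06 (adjusted p = 0.0414). For MIR21 the array does not separate the precursor from the mature form, whose sequence from RefSeq is shown with its seed, bases 2 to 8, in capitals.
hsa-miR-21-5p: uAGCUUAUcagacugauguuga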
